A study of Mus musculus with 2 samples.

Results

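The interferon-inducible GTPases followed here are 10 mouse genes: Gbp2, Gbp3, Gbp4, Gbp5 and Gbp7 of the guanylate-binding protein family, and Irgm1, Irgm2, Igtp, Ifi47 and Iigp1 of the immunity-related GTPase family. They were taken by gene symbol, and all 10 are among the 33696 genes counted in both libraries. The libraries hold single cells from LLC (Lewis lung carcinoma) tumours labelled as tumour-infiltrating lymphocytes, 1 from Dusp2 knockout mice (Dusp2-/-, KO) and 1 from wild-type mice (WT). Dusp2 encodes a nuclear phosphatase of MAP kinases that activated lymphocytes induce. No source used here gives age, sex, strain, which stretch of Dusp2 is missing, how cells were sorted, or how many animals a library holds. The KO library is labelled polyA RNA and the WT library total RNA, although both name the same 10x 3' kit, version 3.1. With 1 library per genotype there is no replicate check and no test, and genotype cannot be told apart from animal, tumour or library preparation.

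Guanylate-binding proteins and immunity-related GTPases are among the most strongly induced products of interferon gamma in mouse cells, and type I interferon induces them as well. Interferon gamma binds the receptor pair Ifngr1 and Ifngr2, the kinases Jak1 and Jak2 pass the signal on, and transcription factors including Irf1 switch the GTPase genes on, while Socs1 damps the signal. The proteins assemble on the membranes of vacuoles that hold pathogens, where guanylate-binding proteins also feed inflammasomes. Irgm1, Irgm2 and Igtp form the GMS subgroup, which keeps other immunity-related GTPases such as Iigp1 inactive on the cell's own membranes. Since T cells, macrophages, fibroblasts and tumour cells all carry the receptor, the transcripts serve as a readout of interferon seen by each cell type.

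The promoters hold the letters that interferon-activated factors bind, and the stretch around each match is shown because it is what the genes have in common beyond their names. RefSeq promoter windows of GRCm38.p6, from 250 bases before to 50 after a gene's start, were found for 8 of the 10 genes. The interferon-stimulated response element was searched as GAAA, any 2 bases and GAAA, on both strands, and 7 of the 8 genes hold it, against 3.44% of all 32851 windows of the same length. The gamma-activated site, searched as TTCNNNGAA, which reads the same on both strands, occurs in Gbp5, Gbp7, Irgm2 and Igtp, against 8.30% of all windows. Both motifs together occur in 0.454% of all windows. A match describes the letters and is no evidence of binding, and Ifi47 held no match in its window. Gbp3 has a second window, which held neither motif, and it was counted by its first. Each 30-base stretch below is written on the gene's own strand, with the response element in capitals. Those of Gbp2 (chr3:142620594-142620623, plus), Gbp3 (chr3:142559989-142560018, plus), Gbp5 (chr3:142496759-142496788, plus) and Gbp7 (chr3:142530273-142530302, plus) read the motif on the opposite strand. Those of Irgm1 (chr11:48871431-48871460, minus), Irgm2 (chr11:58214903-58214932, plus) and Igtp (chr11:58199512-58199541, plus) read it on the gene's strand.
Gbp2: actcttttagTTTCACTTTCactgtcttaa
Gbp3: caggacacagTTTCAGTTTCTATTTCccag
Gbp5: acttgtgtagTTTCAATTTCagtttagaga
Gbp7: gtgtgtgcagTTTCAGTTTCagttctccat
Irgm1: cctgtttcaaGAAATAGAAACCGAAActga
Irgm2: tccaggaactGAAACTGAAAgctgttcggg
Igtp: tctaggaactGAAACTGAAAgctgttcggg
Gbp3 and Irgm1 each hold a pair of overlapping matches. The stretches of Irgm2 and Igtp are identical at 29 of 30 bases.

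The genes sit in a few clusters, which matters for reading counts of transcript ends. On the GRCm38 build with GENCODE M21 annotation, Gbp5 (chr3:142493978-142522344), Gbp7 (chr3:142530342-142550149), Gbp3 (chr3:142560026-142573209) and Gbp2 (chr3:142620602-142638008) lie side by side on the plus strand. Gbp4 lies on the minus strand at chr5:105115767-105139586 and overlaps the annotated spans of Gbp8 and Gbp9 on the same strand. Of the 50-base words in the last 500 bases of its longest transcript, 6.43% also occur in Gbp6, so its counts are the least certain, while the ends of the other 9 genes shared none with another gene. Irgm1 lies at chr11:48861968-48871683 on the minus strand, and Ifi47 at chr11:49076587-49096974 on the plus strand within the annotated span of the olfactory receptor gene Olfr56. Igtp (chr11:58199556-58207591) and Irgm2 (chr11:58199618-58222782) overlap over 7974 bases of the same strand. Iigp1 is on chromosome 18. The RefSeq starts behind the promoter windows differ from these GENCODE starts for some genes. The stretches of Gbp5, Irgm1 and Irgm2 shown above lie within the GENCODE spans of these genes, and that of Gbp2 does in part.

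The KO library holds 12744 barcodes and 101532711 UMIs (single counted transcript molecules), and the WT library 9890 barcodes and 113873249 UMIs. After the cell filter 12636 KO and 9765 WT cells remained, with medians of 4796 and 8598 UMIs, and the libraries share 31 barcodes. Cells were assigned to 17 classes by raw counts of marker genes, which placed 54.6% of KO and 71.0% of WT cells. Classes with at least 50 cells in each library were compared, which are 12. Levels are in CPM, with all UMIs of the cells in a class and library as the total, and a log2 difference is KO over WT. Intervals are 95% and cover counting error only. The label of lymphocytes covers part of the cells: 952 KO and 2781 WT cells were macrophages with C1q transcripts, and 334 KO and 387 WT cells carried Y-chromosome and Rhox5 transcripts of the tumour line. Dusp2 stood at 9.44 CPM in KO and 601 CPM in WT non-naive CD8 T cells, and at 77.3 and 75.4 CPM in the KO and WT tumour cells, which derive from the injected line. B cells numbered 3048 in the KO library and 10 in the WT library, and markers of B cells were found in other KO classes too. The summed level of 7 such markers ranged from 240.3 to 3852 CPM over the 12 compared KO classes and from 5.12 to 315 CPM over the WT classes, with none of the 7 at 0 in 9 of the KO classes. Among KO classes of at least 50 cells, B cells had the lowest sum of the 10 GTPase genes, 115 CPM (110.05 to 119), so B cells held less of these transcripts per UMI than any compared KO class.

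Over all kept cells of a library the 10 genes together stood at 413 CPM in KO and 418 CPM in WT, but the classes differed. The sum in the KO library was highest in regulatory T cells (1059 CPM), Rhox5-low fibroblasts (1013), non-naive CD4 T cells (982) and myeloid cells low in C1q (889.95). It was 795 CPM in non-naive CD8 T cells, 754 in naive-like CD4 T cells, 656 in C1q macrophages, 555 in naive-like CD8 T cells and 488 in gamma-delta T cells. It was 374 CPM in NK cells, 346 in tumour cells, 329 in type 1 conventional dendritic cells, 270.4 in plasmacytoid dendritic cells, 269 in mature dendritic cells low in Rhox5 and 115 in B cells. Among the compared classes of the WT library the order began with regulatory T cells (1355 CPM), non-naive CD4 T cells (1024) and fibroblasts (973), and ended with naive-like CD8 T cells (345 CPM) and tumour cells (240.0). Intervals overlap between neighbours such as regulatory T cells, fibroblasts and non-naive CD4 T cells of the KO library. The heat map of levels shows these values gene by gene.

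**Figure D1:**
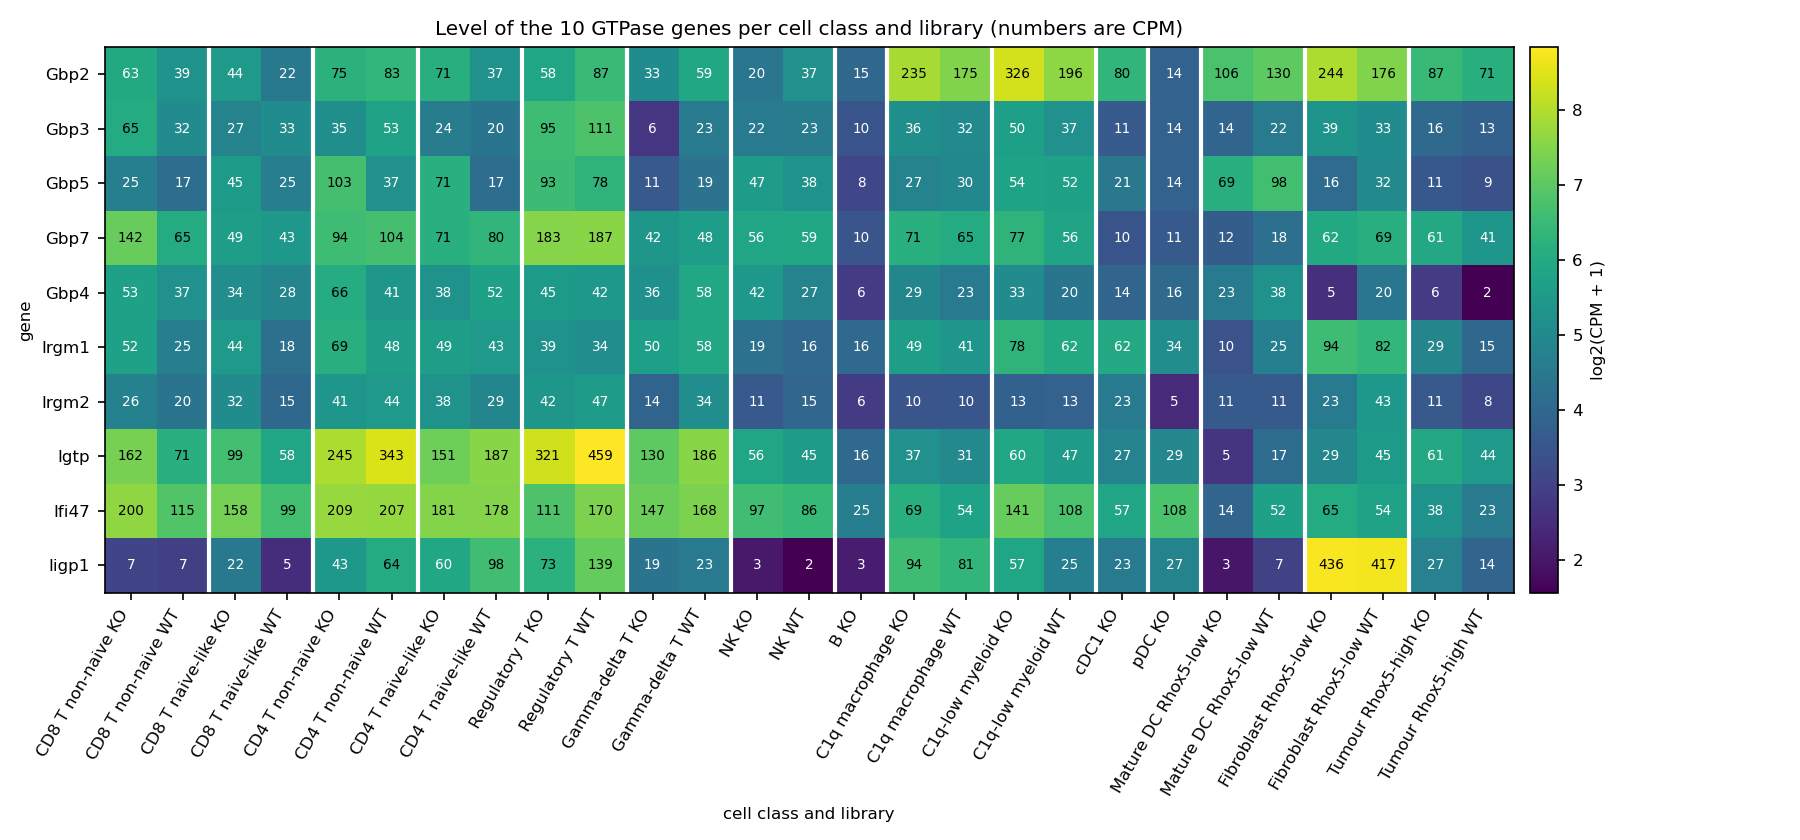
Level of each of the 10 genes (down) in each cell class and library with at least 50 cells (across, KO left of WT). Colour is log2(CPM + 1) and the printed numbers are CPM; Gbp2 leads in macrophages and Iigp1 in fibroblasts, where it stood at 436 CPM in KO and 417 CPM in WT.

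The leading member differed between classes. In regulatory T cells Igtp, a GMS regulator, made up 30.3% of the UMIs of the 10 genes in KO and 33.9% in WT. In non-naive CD8 T cells the leading gene was Ifi47, an immunity-related GTPase also known as IRG-47, with 25.1% in KO and 26.9% in WT. Gbp2, which is recruited to vacuoles and to bacteria in the cytosol, led in C1q macrophages with 35.8% in KO and 32.4% in WT, and in mature dendritic cells low in Rhox5 with 39.6% in KO and 31.2% in WT. Iigp1, an effector that the GMS proteins restrain, held 43.0% in KO and 42.9% in WT fibroblasts. The leading gene was thus the same in both libraries for these classes. In naive-like CD4 T cells it was Ifi47 in KO (24.0%) and Igtp in WT (25.2%), and in gamma-delta T cells Ifi47 in KO (30.1%) and Igtp in WT (27.5%), with overlapping intervals of the shares of both genes.

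**Figure D2:**
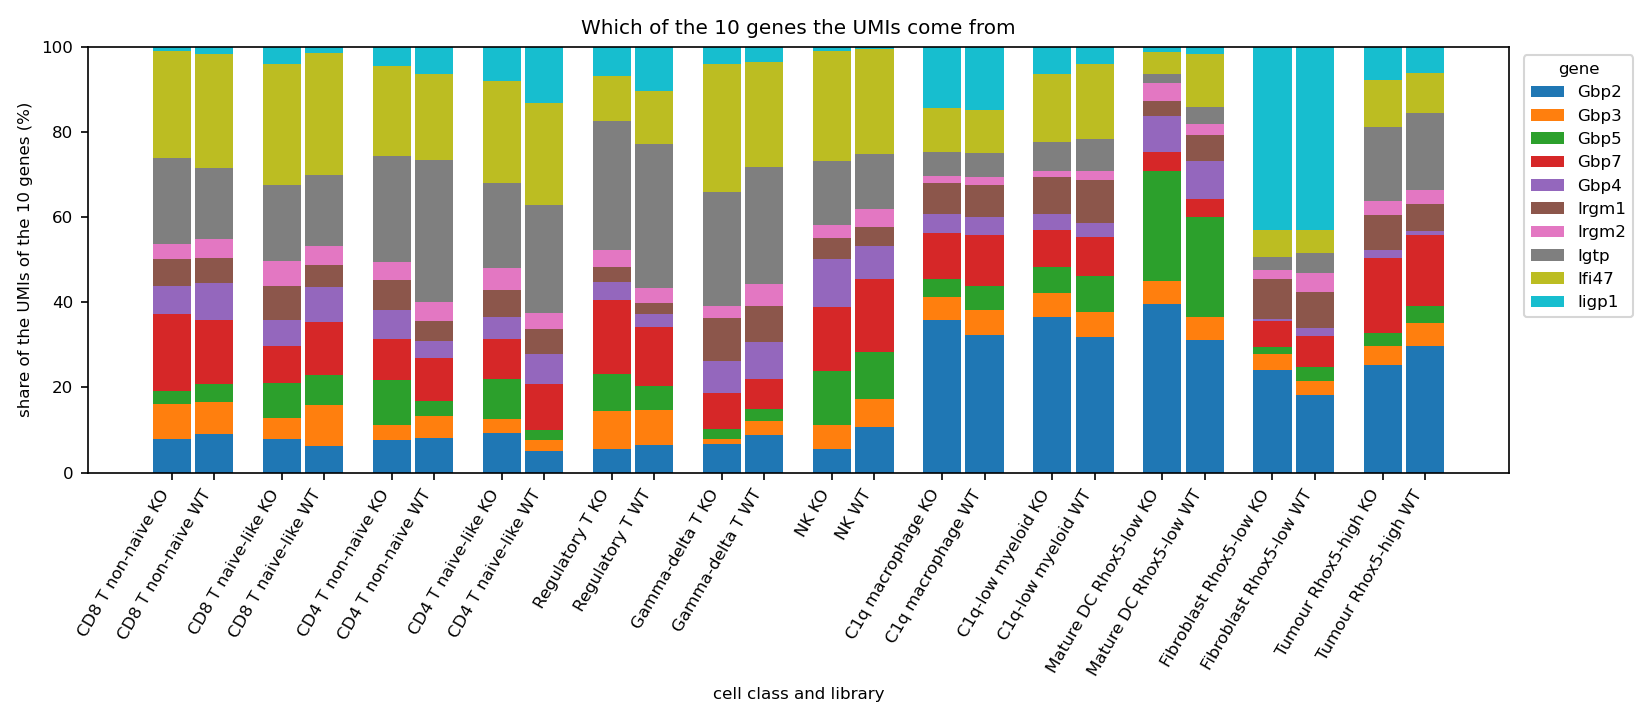
Share of the UMIs of the 10 genes that each gene contributes (percent, stacked to 100) in each class, KO left of WT. Igtp is the largest part in regulatory T cells, Gbp2 in C1q macrophages and Iigp1 in fibroblasts, in both libraries.

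Non-naive CD8 T cells had the largest log2 difference of the summed level among the T-cell classes. All 10 genes were higher in KO, against 45.1% of the 6970 genes measured in this class. The sum was 795 CPM in KO (749.9 to 841) and 427 CPM in WT (397 to 459), a log2 difference of 0.90 (0.76 to 1.03). These values come from 304 KO cells at a median of 3822 UMIs and 288 WT cells at 5104 UMIs. Measured genes are those with at least 50 UMIs over both libraries in a class. Shares of all genes, here and below, are over the measured genes of the class. Counts of the 10 members higher in KO also include members below this minimum. Of the 10 members 9 passed, and 4 of the 9 lay past 2-fold higher, against 1.76% of all measured genes. None lay past 2-fold lower, against 4.23%. The median log2 difference of the 10 members was 0.75, against -0.05 for all measured genes. By this median naive-like CD8 T cells, at 0.83, differed more.

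Among the guanylate-binding proteins in these CD8 T cells, Gbp7, which has been tied to the oxidative defence of phagocytes, stood at 142 CPM in KO and 65.0 CPM in WT, log2 1.13 (0.80 to 1.47). Gbp3 stood at 65.4 CPM in KO and 32.5 CPM in WT, log2 1.009 (0.53 to 1.505), and Gbp2 at 62.7 CPM in KO and 38.6 CPM in WT, log2 0.70 (0.23 to 1.17). Gbp5, which promotes inflammasome assembly, was at 24.9 CPM in KO and 17.4 CPM in WT, with an interval of the difference that spans 0 (-0.21 to 1.26). Gbp4 had 52.6 CPM in KO and 37.0 CPM in WT. The 3 genes of the chromosome 3 cluster with the most UMIs were thus each higher in KO beyond counting error.

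The GMS regulators Igtp and Irgm1 were also past 2-fold. Igtp had 162 CPM in KO and 71.1 CPM in WT, log2 1.19 (0.87 to 1.51), and Irgm1 had 51.9 CPM in KO and 24.6 CPM in WT, log2 1.07 (0.52 to 1.64). Irgm2 had 26.3 CPM in KO and 19.6 CPM in WT, log2 0.42 (-0.27 to 1.12), which counting error spans. Ifi47 was the most abundant member, 199.5 CPM in KO and 115 CPM in WT, log2 0.80 (0.54 to 1.06). The effector Iigp1 was near the floor of detection, with 11 UMIs in KO and 12 UMIs in WT.

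The difference in non-naive CD8 T cells was spread over many cells. Thinning each cell to 2000 UMIs left 245 of 304 KO and 283 of 288 WT cells, with 9 of the 10 members higher in KO. Of the cells left, 71.0% in KO (64.9 to 76.6) and 51.6% in WT (45.6 to 57.5) held a UMI of at least 1 member. The share was 17.6% in KO B cells (16.1 to 19.0), the lowest level among KO classes of at least 50 cells. At 2000 UMIs Igtp was found in 24.9% of KO cells and 14.8% of WT cells, against 3.03% of KO B cells, and without thinning in 37.5% of KO and 29.5% of WT CD8 cells. Ifi47 was found in 29.8% of KO and 17.7% of WT cells at 2000 UMIs, and in 50.3% and 40.3% without thinning. The 10% of cells richest in these transcripts held 41.1% of their UMIs in KO and 45.9% in WT. Cells with UMIs of at least 3 different members made up 14.7% in KO and 6.01% in WT. The stacked bars of UMIs per cell show the shift across the whole range.

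**Figure D3:**
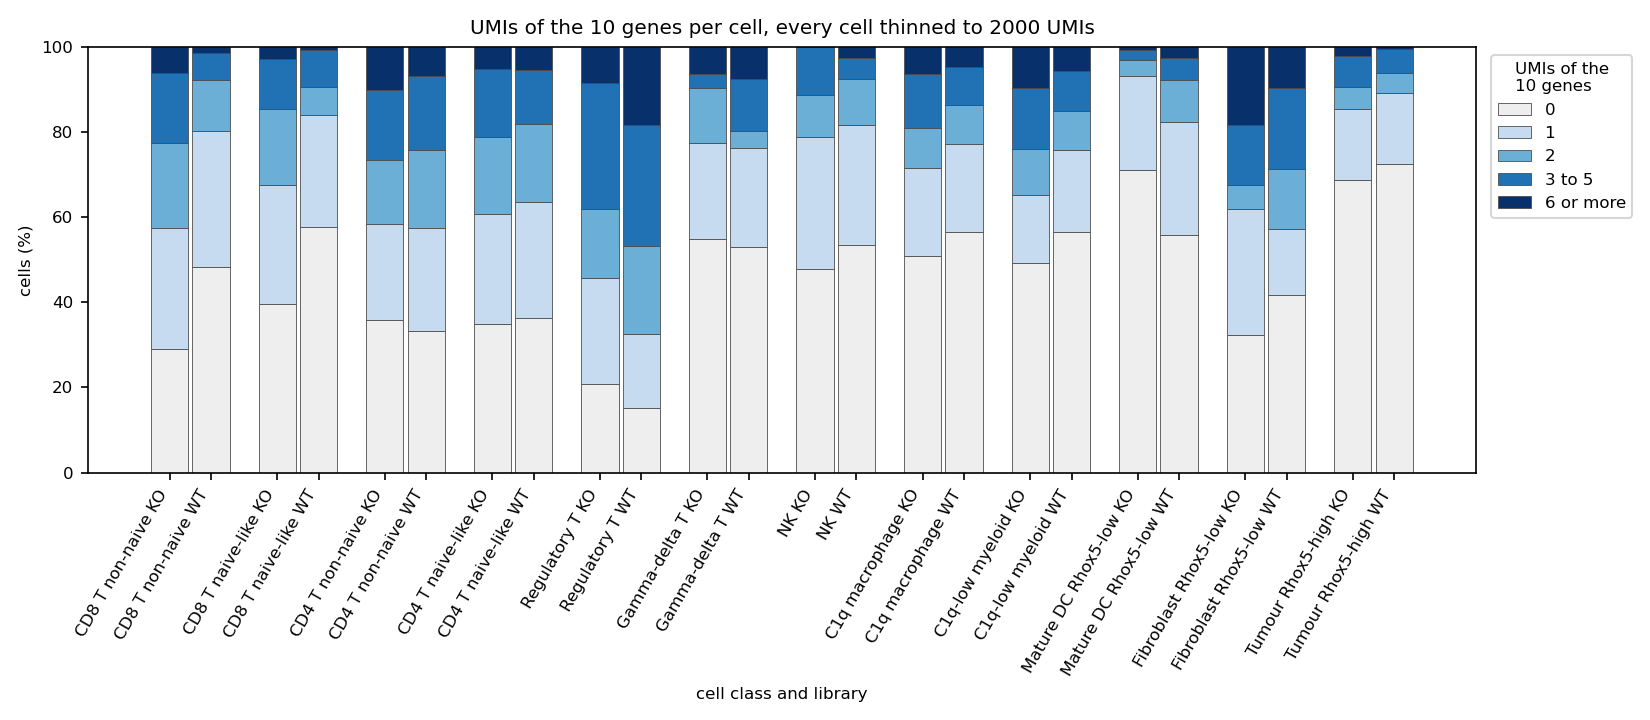
Share of cells (percent) with 0, 1, 2, 3 to 5 or 6 or more UMIs of the 10 genes, each cell thinned to 2000 UMIs, per class with KO left of WT. Cells without a UMI are fewer in KO for both CD8 classes and more numerous in KO for mature dendritic cells low in Rhox5.

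Because the libraries differ in the share of these cells with Pdcd1, which encodes the inhibitory receptor PD-1, the class was also split by it, a split chosen after the values were seen. Among cells with a Pdcd1 UMI, 92 in KO and 224 in WT, the sum was 640 CPM in KO (576 to 709) and 397 CPM in WT (365 to 430.3), log2 0.69 (0.50 to 0.88). Among cells without one, 212 in KO and 64 in WT, it was 892 CPM in KO and 568 CPM in WT, log2 0.65 (0.42 to 0.89). The sum was thus higher in KO on both sides of the split, by less than in the whole class. Members higher in KO numbered 10 with a Pdcd1 UMI and 9 without. Iigp1, from few UMIs, went opposite ways on the sides. With a Pdcd1 UMI it had 6 UMIs in KO and 3 UMIs in WT, log2 2.35 (0.13 to 4.98). Without one it had 5 UMIs in KO and 9 UMIs in WT, log2 -2.36 (-4.29 to -0.63). The split was made without thinning, so its sides also differ in depth. Median UMIs were 5290.5 in KO and 5502.5 in WT cells with a Pdcd1 UMI, and 3382.5 and 4150.5 in those without.

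Naive-like CD8 T cells, gated by transcripts of naive T cells such as Lef1 and Ccr7, also had more of these transcripts in KO. The sum was 555 CPM in KO (524 to 586) and 345 CPM in WT (310.3 to 382), log2 0.69 (0.52 to 0.86), over 338 and 137 cells. Of the 10 members 9 were higher in KO, against 37.1% of all measured genes. Past 2-fold higher were 4 of the 10, against 2.24%, and none past 2-fold lower, against 4.59%. These were Irgm1 (44.4 CPM in KO and 18.0 CPM in WT), Irgm2 (32.4 and 15.1), Gbp2 (43.9 and 21.7) and Iigp1 (21.7 and 4.72, from 49 and 5 UMIs). Gbp3 was the exception at 27.1 CPM in KO and 33.1 CPM in WT, log2 -0.29 (-0.91 to 0.35). Irgm1 was past 2-fold in non-naive cells as well. There the intervals of Gbp2 and Irgm2 also reach past 2-fold and Iigp1 was near the floor. The cut therefore does not separate the CD8 classes for these genes. Markers of B cells were most abundant here, 3852 CPM in KO and 39.7 CPM in WT. With immunoglobulin and other bulk transcripts left out of the total, the median log2 of the members was 0.99, against 0.83 with them. All measured genes had a median of -0.13 in this class, -0.14 in gamma-delta T cells and -0.15 in NK cells, and within 0.1 of 0 in the others; less that median the members' value was 0.96.

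CD4 T cells without Foxp3 had similar sums in both libraries. In non-naive CD4 T cells the sum was 982 CPM in KO (908 to 1059) and 1024 CPM in WT (930.7 to 1123), log2 -0.06 (-0.24 to 0.12), over 151 and 93 cells. In naive-like CD4 T cells it was 754 CPM in KO and 741 CPM in WT, log2 0.03 (-0.17 to 0.22), over 286 and 59 cells. Within these sums the members went different ways. Gbp5 was 103 CPM in KO and 36.8 CPM in WT in non-naive cells, log2 1.49 (0.69 to 2.37), and 71.3 and 17.2 CPM in naive-like cells, log2 2.05 (0.89 to 3.52), where 20 of its 125 KO UMIs came from 1 cell. It was the only measured member past 2-fold in either class, against 2.71% of genes higher in non-naive and 5.45% in naive-like cells, and none lay past 2-fold lower, against 2.79% and 6.15%. Igtp was lower in KO non-naive cells, 245 CPM against 343 CPM in WT, log2 -0.49 (-0.81 to -0.16). Members higher in KO numbered 4 of 10 in non-naive cells, against 50.6% of all genes, and 6 of 10 in naive-like cells, against 46.3%.

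Regulatory T cells, gated by Foxp3, had the highest sum in either library and less of it in KO: 1059 CPM (992 to 1129) against 1355 CPM in WT (1283 to 1429), log2 -0.36 (-0.48 to -0.23), over 141 and 130 cells. Only 3 of the 10 members were higher in KO, against 42.8% of all genes, and none lay past 2-fold in either direction, against 1.54% of genes higher and 3.15% lower. Both families had members that were lower in KO beyond counting error. Gbp2 had 57.8 CPM in KO and 86.8 CPM in WT, log2 -0.59 (-1.12 to -0.07). Iigp1 had 72.6 CPM in KO and 139 CPM in WT, log2 -0.94 (-1.39 to -0.50), Ifi47 had 111 and 169.6 CPM, log2 -0.61 (-0.98 to -0.24), and Igtp had 321 and 459 CPM, log2 -0.52 (-0.74 to -0.30). Gbp7, the most abundant guanylate-binding protein here, had 183 CPM in KO and 187 CPM in WT, log2 -0.03 (-0.35 to 0.28), and the other 5 members also had intervals that span 0. Cells with a UMI of any member at 2000 UMIs were 79.1% in KO (71.0 to 85.7) and 84.9% in WT (77.5 to 90.7), and these intervals overlap.

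In gamma-delta T cells none of the 10 members, of which 6 were measured, was higher in KO, against 38.5% of all measured genes. The sum was 488 CPM in KO (418 to 566) and 678 CPM in WT (627 to 733), log2 -0.48 (-0.72 to -0.23), but it rests on 70 and 175 cells. Of the 6 measured members none lay past 2-fold lower, against 9.5% of all genes, or higher, against 2.61%. Igtp had 130.3 CPM in KO and 186 CPM in WT, log2 -0.52 (-1.013 to -0.05), and Ifi47 147 and 168 CPM, log2 -0.20 (-0.67 to 0.26). Thinning to 2000 UMIs left 62 KO and 172 WT cells, 4 members higher in KO, and shares of cells with a member UMI of 45.2% in KO and 47.1% in WT. Macrophage markers summed to 147 CPM in KO and 332 CPM in WT gamma-delta T cells, and their part in the result was not tested.

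NK cells had the lowest sum among the compared lymphocytes of the KO library, 374 CPM (329 to 425), against 347 CPM in WT (312 to 385), log2 0.11 (-0.13 to 0.35), over 75 and 160 cells. Of the 10 members 6 were higher in KO, against 39.6% of all genes, and none of the 6 measured members lay past 2-fold, against 1.89% of genes higher and 6.07% lower. Gbp2 stood at 20.4 CPM in KO and 37.0 CPM in WT, log2 -0.86 (-1.89 to 0.08). Ifi47 stood at 97.2 CPM in KO and 85.6 CPM in WT, log2 0.18 (-0.31 to 0.67). At this depth no member of NK cells differed beyond counting error. The plot of differences sets these classes side by side.

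**Figure D4:**
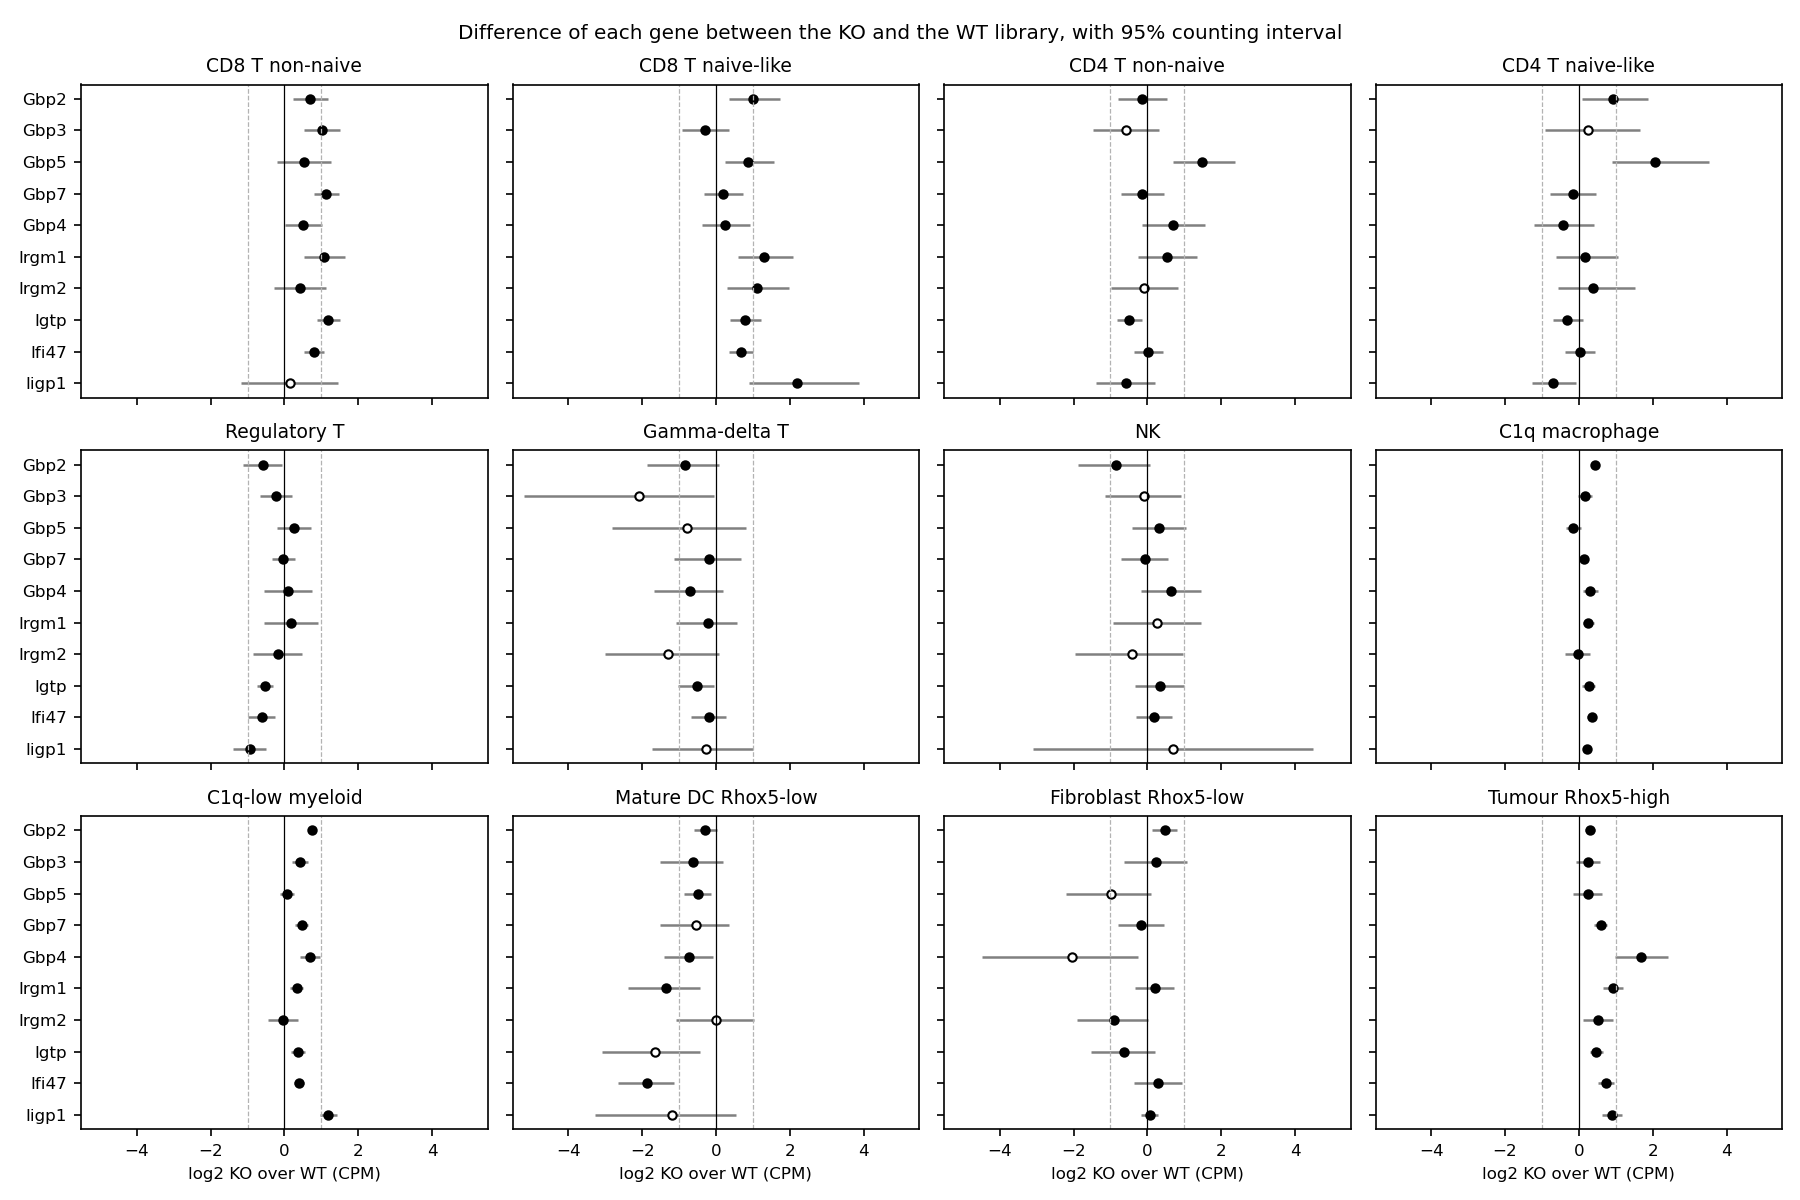
Log2 difference of each gene, KO over WT, in 12 classes, with 95% counting intervals (grey lines, drawn to the axis limits). Filled points have at least 50 UMIs over both libraries, open points fewer, and dashed lines mark 2-fold; all points lie right of 0 in non-naive CD8 T cells and in tumour cells and left of 0 in gamma-delta T cells and mature dendritic cells low in Rhox5.

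Myeloid cells had the most UMIs behind their values. In macrophages with at least 10 C1q UMIs, the sum was 656 CPM in KO (640.3 to 673) and 542 CPM in WT (534 to 551), log2 0.28 (0.23 to 0.32), over 952 and 2781 cells. Higher in KO were 8 of the 10 members, against 45.5% of all genes, and none lay past 2-fold, against 2.15% higher and 1.28% lower. Gbp2 differed most, with 235 CPM in KO (226 to 245) and 175 CPM in WT (171 to 180.2), log2 0.42 (0.35 to 0.49). Ifi47 followed with 68.7 CPM in KO and 54.2 CPM in WT, log2 0.34 (0.21 to 0.47). Gbp5 and Irgm2 were the members not higher in KO, at 27.1 and 10.2 CPM in KO against 30.04 and 10.4 CPM in WT. The differences were thus narrow in counting error and small in size.

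Myeloid cells with at most 9 C1q UMIs differed more. Their sum was 889.95 CPM in KO (864 to 917) and 615 CPM in WT (603 to 627), log2 0.53 (0.48 to 0.58), over 681 and 2042 cells. Members higher in KO numbered 9 of 10, against 49.9% of all genes, and 1 of the 10 lay past 2-fold higher, against 2.71%. That gene was Iigp1, with 57.0 CPM in KO (50.5 to 64.1) and 24.98 CPM in WT (22.6 to 27.5), log2 1.19 (0.97 to 1.41). None lay past 2-fold lower, against 1.41%. Gbp2 again held the most UMIs, 326 CPM in KO and 196 CPM in WT, log2 0.74 (0.65 to 0.82). Gbp4 had 32.6 CPM in KO and 20.1 CPM in WT, log2 0.70 (0.42 to 0.97), and Ifi47 141 and 108 CPM, log2 0.39 (0.26 to 0.52). Irgm2 was 13.1 CPM in KO and 13.4 CPM in WT, as near in this class as among C1q macrophages.

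In myeloid cells the GTPases went with Cxcl9, the chemokine that interferon gamma induces and that draws cells with the receptor Cxcr3. At 2000 UMIs per cell, Cxcl9 was detected in 37.8% of KO and 31.5% of WT C1q macrophages (354 of 937 and 867 of 2753 cells), and in 26.2% of KO and 15.2% of WT C1q-low cells. C1q macrophages with a Cxcl9 UMI had a summed member level of 1307 CPM in KO (1224 to 1393) and 1081 CPM in WT (1032 to 1131). Those without had 367 CPM in KO (333 to 404) and 331 CPM in WT (312 to 349). Among C1q-low cells the sums were 2093 CPM in KO and 1757 CPM in WT with Cxcl9, and 524 and 439 CPM without. The sum was thus several times higher in cells with Cxcl9 in both libraries, though not for every gene: Irgm2 in KO C1q macrophages had 9.89 CPM with Cxcl9 and 12.01 CPM without, from 7 and 14 UMIs. The gap between the KO and WT sums was smaller within each side than over the whole C1q-low class.

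Tumour cells were gated as cells with at least 2 Y-chromosome UMIs and at least 3 Rhox5 UMIs and without Ptprc, the leukocyte antigen CD45. All 10 members were higher in KO-library tumour cells, against 44.5% of all genes. Their sum was 346 CPM in KO (335 to 358) and 240.0 CPM in WT (231 to 249), log2 0.53 (0.46 to 0.60), over 334 and 387 cells. Gbp4, at a low level of 6.22 CPM in KO and 1.95 CPM in WT, was the only member past 2-fold higher, against 0.802% of genes, with 19 of its 64 KO UMIs in 1 cell; none lay past 2-fold lower, against 1.79%. Irgm1 had 28.6 CPM in KO and 15.1 CPM in WT, log2 0.92 (0.65 to 1.19), Iigp1 26.9 and 14.4 CPM, log2 0.90 (0.62 to 1.18), and Gbp2 87.3 and 71.2 CPM, log2 0.29 (0.16 to 0.43). With the Y-chromosome requirement dropped, a gate chosen after the values were seen, the class held 1228 KO and 1328 WT cells and the sum was 379 CPM in KO and 209 CPM in WT, log2 0.86 (0.82 to 0.90). This wider gate contains the first and can share cells with the mixed gates of fibroblasts and of mature dendritic cells. There all 10 members were higher in KO, against 43% of all genes, and 2 lay past 2-fold higher, Irgm1 and Iigp1, against 1.22%, and none lower, against 2.71%. Cells with any member UMI at 2000 UMIs were 31.1% in KO (26.2 to 36.4) and 27.4% in WT (23.0 to 32.1) in the first gate, so these shares overlap, and 30.7% and 23.4% in the second. The 10% of cells richest in these transcripts held 63.5% of the UMIs in KO and 65.0% in WT in the first gate. Under gates with doubled marker minimums, 6 members were higher in KO and their median was 0.29, against 0.55.

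The gates for fibroblasts and mature dendritic cells also took in tumour cells. Rhox5 stood at 702 CPM in KO and 859.5 CPM in WT fibroblasts, and at 649.97 and 483 CPM in mature dendritic cells, against 915 and 934 CPM in tumour cells. Both were therefore restricted to cells with at most 2 Rhox5 UMIs, after this check was seen. In mature dendritic cells, marked by Ccr7, Fscn1 and Ccl22, this turned the direction. The mixed gate had a median log2 of 1.16 over the members, with 8 of 10 higher in KO against 46.6% of all genes, 6 of 10 past 2-fold higher against 2.14% and none lower against 3.57%, and 1 KO cell alone held 248 of its Gbp2 UMIs.

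Restricted to 188 KO and 199 WT cells low in Rhox5, mature dendritic cells had none of the 10 members higher in KO, against 42.1% of all genes. Their sum was 269 CPM in KO (241 to 298) and 417 CPM in WT (388 to 449), log2 -0.64 (-0.82 to -0.45). Of the 6 measured members Ifi47 and Irgm1 lay past 2-fold lower, against 4.11% of genes, and none past 2-fold higher, against 2.7%. Ifi47 had 14.3 CPM in KO and 51.8 CPM in WT, log2 -1.85 (-2.65 to -1.13), and Irgm1 9.81 and 25.1 CPM, log2 -1.35 (-2.37 to -0.43). Gbp2 and Gbp5, which made up most of the UMIs, differed less, with 106 and 69.4 CPM in KO against 130.4 and 97.9 CPM in WT. Cells with any member UMI were 29.01% in KO (22.2 to 36.7) and 44.3% in WT (37.1 to 51.6). Markers of macrophages, which carry more of these transcripts, summed to 498 CPM in KO and 811 CPM in WT, and their part in the result was not tested. Type 1 conventional dendritic cells fell short of the minimum with 50 KO and 47 WT cells; their sums were 329 CPM in KO (288 to 375) and 458 CPM in WT (412 to 508).

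Fibroblasts low in Rhox5 had nearly equal sums, 1013 CPM in KO (935 to 1096) and 973 CPM in WT (907 to 1042), log2 0.06 (-0.09 to 0.21), over 79 and 92 cells. Higher in KO were 5 of the 10 members, against 39.9% of all genes, and none of the 8 measured members lay past 2-fold, against 2.2% of genes higher and 4.09% lower. Thinning to 2000 UMIs left 71 KO and 84 WT cells and 9 members higher in KO. Cells with a member UMI were then 67.6% in KO (55.5 to 78.2) and 58.3% in WT (47.1 to 69.0), and these intervals overlap. Iigp1, the leading member here, had 436 CPM in KO (385 to 491) and 417 CPM in WT (375 to 463). Gbp2 had 244 CPM in KO and 176 CPM in WT, log2 0.47 (0.13 to 0.81). Of 8 macrophage markers Apoe, which fibroblasts can express too, had 1158 CPM in KO and 283 CPM in WT fibroblasts, and the other 7 were lower in KO, such as Lyz2 with 104 CPM in KO and 179 CPM in WT and C1qb with 17.9 and 60.8 CPM. The 8 summed to 1311 CPM in KO and 606 CPM in WT fibroblasts, and their part in the Gbp2 value was not tested. Tumour markers summed to 26.0 CPM in KO and 143 CPM in WT fibroblasts low in Rhox5. Among them Krt8 had 11.4 CPM in KO and 81.1 CPM in WT, and Krt18 1.63 and 40.5 CPM. Their part in the comparison was not tested. In the mixed gate the sum was 484 CPM in KO and 371 CPM in WT; 8 of the 10 members were higher in KO, against 44.6% of all genes, and none lay past 2-fold, against 3.91% higher and 2.03% lower.

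The signal that induces the GTPases was followed through its own genes. Ifng, the ligand, stood at 206 CPM in KO and 177 CPM in WT non-naive CD8 T cells, log2 0.22 (-0.02 to 0.45), and at 90.9 CPM in KO and 222 CPM in WT NK cells, log2 -1.29 (-1.73 to -0.87). Naive-like CD8 T cells had 56.8 CPM of Ifng in KO and 114 CPM in WT, although their GTPase sum was higher in KO. In non-naive CD8 T cells Irf1 had 193 CPM in KO and 123 CPM in WT, log2 0.65 (0.39 to 0.91), and the feedback inhibitor Socs1 had 127 and 68.3 CPM, log2 0.90 (0.56 to 1.24). The kinase gene Jak2 was lower in KO, 76.8 CPM against 117 CPM in WT, log2 -0.61 (-0.95 to -0.27). The receptor chain Ifngr1 was 911 CPM in KO and 1007 CPM in WT. In regulatory T cells, where the members' sum was lower in KO, Socs1 was higher, 187 CPM in KO and 82.8 CPM in WT, log2 1.18 (0.79 to 1.58).

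Other genes of the interferon responses were set beside the members by median, with all measured genes as background. In non-naive CD8 T cells the medians were -0.22 over 14 other interferon gamma response genes, 0.11 over 17 type I interferon response genes and 0.13 over 8 signalling genes, against 0.75 for the members. None of the 17 type I genes lay past 2-fold, against 1.76% of all genes higher and 4.23% lower. Of the 14, H2-DMa and Irf8 lay past 2-fold lower, against 4.23% of all genes; Irf8, a transcription factor, had 137 CPM in KO and 424 CPM in WT. Among 7 other measured GTPases of the families only Tgtp2 lay past 2-fold, higher in KO, against 1.76% of all genes. Tgtp2 had 27.6 CPM in KO and 10.1 CPM in WT, and the median of the 7 was -0.05.

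In C1q-low myeloid cells the lists for the 2 interferons parted. Of all measured genes in this class 49.9% were higher in KO, 2.71% lay past 2-fold higher and 1.41% past 2-fold lower. Of 20 measured interferon gamma response genes 18 were higher in KO and 2 lay past 2-fold higher, Cxcl9 with 868 CPM in KO and 363 CPM in WT, and Nos2 with 15.4 and 4.94 CPM; none lay past 2-fold lower. Of 29 type I response genes 28 were lower in KO and 8 lay past 2-fold lower, among them the antiviral gene Rsad2 with 54.9 CPM in KO and 175 CPM in WT and Ifit1 with 12.5 and 38.1 CPM. Zbp1, a sensor of nucleic acids, was the exception at 145 CPM in KO and 136 CPM in WT. The medians were 0.30 for the first list, -0.52 for the second and 0.41 for the members. Among related GTPases, Mx1, a type I response gene, had 10.7 CPM in KO and 28.6 CPM in WT, and Gm4951 17.4 and 7.37 CPM.

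In regulatory T cells 15 of 18 type I response genes were lower in KO, with a median of -0.45, and 4 lay past 2-fold lower, where 42.8% of all genes were higher and 3.15% past 2-fold lower. Rsad2 was among them, with 4.54 CPM in KO and 77.7 CPM in WT. The 15 other interferon gamma response genes had a median of -0.04, against -0.07 for all genes and -0.20 for the members. Of these, 3 lay past 2-fold lower: Cxcl9, Cxcl10 and Serpina3g. Macrophage markers summed to 452 CPM in KO and 437 CPM in WT regulatory T cells, and their part in these values was not tested. In mature dendritic cells low in Rhox5 the type I list had a median of -0.60 over 16 genes and the members -0.68. The other interferon gamma response genes had a median of -0.25 over 17 genes there, with 7 higher in KO, against 42.1% of all genes. In tumour cells the type I list had a median of 0.27 over 27 genes, with 20 higher in KO, against 44.5% of all genes. The other interferon gamma response genes had a median of 0.07 over 19 genes, with 11 higher in KO, and the members 0.55. Partners of the GTPases at vacuoles and inflammasomes, such as the autophagy genes Atg5 and Atg16l1 and the caspase gene Casp1, had medians between -0.29 and 0.08 in the 12 classes. The plot of list medians shows all classes.

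**Figure D5:**
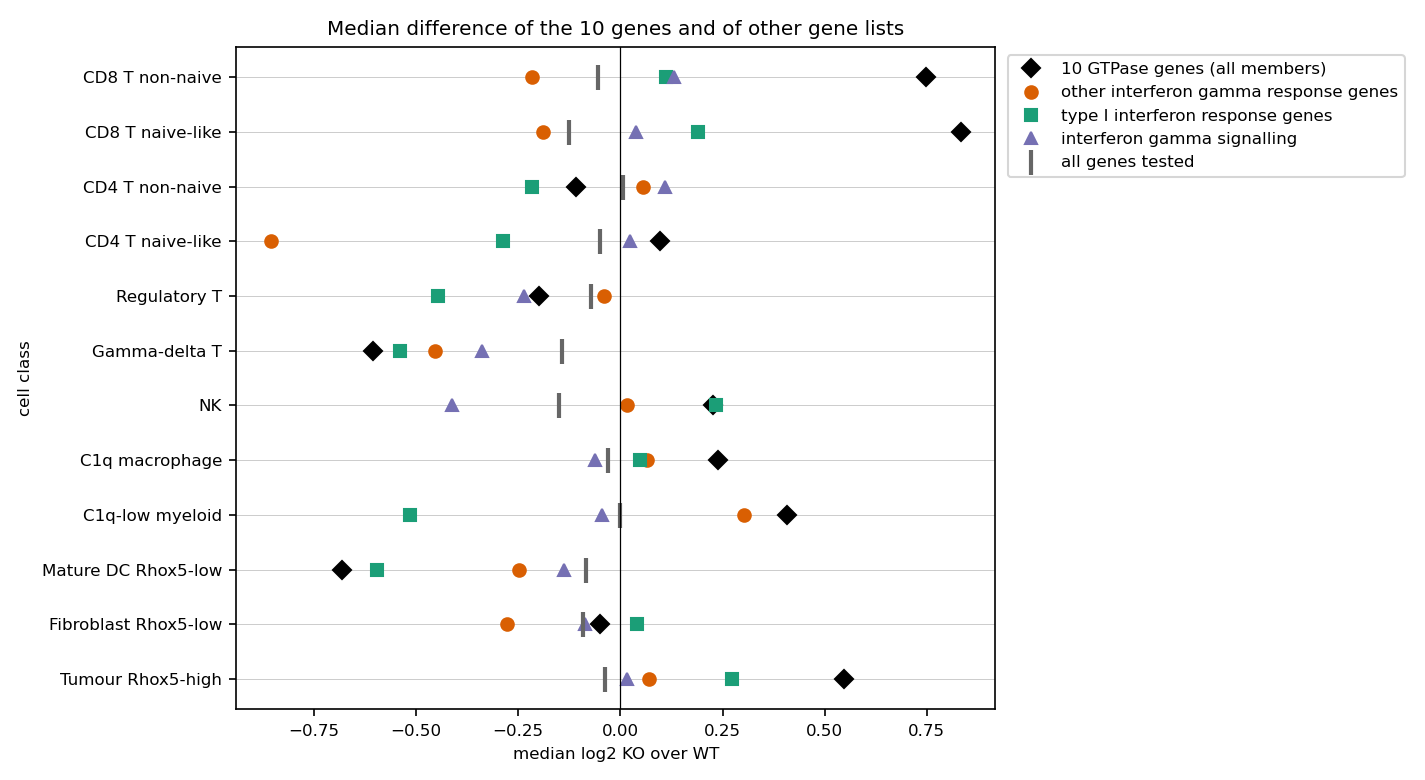
Median log2 difference, KO over WT, of the 10 GTPase genes and of 3 other lists in 12 classes, with the median of all measured genes as a grey tick. The members lie right of every other list in both CD8 classes, and in C1q-low myeloid cells the type I list lies left at -0.52 and the members right at 0.41.

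Across 27 points, each a class in 1 library with at least 50 cells, the members followed one another to different degrees. These points share libraries and depth, so the correlations are descriptions. Pearson's r of log2(CPM + 10) was 0.81 between Gbp3 and Gbp7 and 0.81 between Igtp and Ifi47, 0.57 between Gbp2 and Iigp1, and -0.13 between Gbp2 and Igtp. The genes outside the list whose pattern was most like the members' mean, among 7694 genes, were Hif1a (r of 0.84), Maf (0.82), Parp14 (0.80), Rtp4 (0.78), Tmem65 (0.78), Rap1gds1 (0.76), Stx11 (0.76), Atp9b (0.76), Reps1 (0.75) and Cyb5a (0.73). Of these, Parp14 and Rtp4 are type I response genes of the lists above. Irgm2 had too few UMIs for this comparison. Among the other 9 members r with that mean, which each takes part in, ran from 0.44 for Gbp2 to 0.84 for Gbp7.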

How the data were processed

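The authors deposited unnormalized UMI counts of every gene in each barcode, for 1 KO and 1 WT library. Per the submitters' processing notes, Cell Ranger 6.0.1, Seurat 4.0.3 and 4.0.4 and mm10 were used, but per the file headers the counting program was Cell Ranger 8.0.1. No source used here names the annotation release. A cell needed 200 detected genes and no more than 20% mitochondrial UMIs. Classes were gated by raw marker UMIs, cells in over 1 of the 17 gates were left out of these classes, and no doublet caller was run. The tumour gate without the Y requirement was not kept apart from the other gates. Each gene's UMIs were summed per class and library and divided by the class total to give CPM. 3' UMIs count transcript ends and were not divided by length. Intervals are exact Poisson for levels, Clopper-Pearson for shares and exact conditional for ratios. Thinning used seed 1. All 10 members are named in every class, list genes by counts past 2-fold, and the 10 most similar genes by correlation among genes with at least 100 UMIs in at least 5 points. The members and lists were chosen with earlier results of these data known, and 3 list genes are not among the symbols. Alternatives were thinning, stricter gates and filters, other totals and other minimums. Computations used Python 3.11.15, numpy 2.4.6, scipy 1.17.1 and pandas 2.3.3, tested on simulated counts. Some genes of the lists and gates are not reported here.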

Additional observations from a re-analysis of the deposited data

Results flagged for a closer look

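In 3 classes the summed level of the 10 GTPase genes moved the opposite way from non-naive CD8 T cells, where it was log2 0.90 (0.76 to 1.03), KO over WT. It was -0.36 in regulatory T cells (-0.48 to -0.23), -0.48 in gamma-delta T cells (-0.72 to -0.23) and -0.64 in mature dendritic cells low in Rhox5 (-0.82 to -0.45). Each class is 1 sample per genotype, so the difference between classes was not tested, and the intervals cover counting error only.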

How the results depend on the processing

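No paired analysis was possible because each genotype is 1 library. Over the alternatives the median log2 of the members ranged from 0.75 to 0.98 in non-naive CD8 T cells, 0.82 to 1.11 in naive-like CD8 T cells, -0.34 to -0.10 in regulatory T cells, -0.73 to -0.15 in gamma-delta T cells, 0.36 to 0.57 in C1q-low myeloid cells and -1.03 to -0.60 in mature dendritic cells low in Rhox5. It changed sign in non-naive CD4 (-0.15 to 0.21), naive-like CD4 (-0.07 to 0.24), mixed fibroblasts (-0.05 to 0.87) and Rhox5-low fibroblasts (-0.07 to 0.24). Thinning to 2000 UMIs gave 0.38 in C1q macrophages, 0.65 in tumour cells gated without Y and 0.47 for Gbp3 in gamma-delta T cells, the last against -2.07. Gates with doubled minimums gave 0.87 in mixed fibroblasts and 0.29 in tumour cells, and no value in CD4, gamma-delta and NK cells, which then had under 50 cells. At 1000 UMIs the share of cells with a member UMI was 52.4% in KO and 34.0% in WT non-naive CD8 T cells, and the log2 ratio of the shares, KO over WT, stayed within its counting interval at 2000 UMIs in all 15 gates.

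The mixed gate of mature dendritic cells (median 1.16) gave -0.31 when thinned, -0.71 with stricter gates, -0.12 without the deepest 5% of cells, -0.68 with at most 2 Rhox5 UMIs, -0.17 as a mean over cells and 0.58 without its richest cell. By gene in the same gate, Gbp2 gave -0.047 thinned, -0.30 with stricter gates, -0.22 without the deepest cells and -0.29 at low Rhox5. Gbp7 gave -0.54 with stricter gates and -0.55 at low Rhox5, Igtp -0.80 and -1.64, and Iigp1 -1.88 and -1.18. Irgm1 gave -0.85 thinned, -1.49 with stricter gates, -0.36 without the deepest cells, -1.35 at low Rhox5 and -0.16 as a mean over cells, and Ifi47 -0.19, -2.08, -1.18, -1.85 and -0.75. The Rhox5 limit removes cells with more than 2 Rhox5 UMIs by construction, and tumour cells with fewer can remain. The cause of the turns was not tested.

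The number of genes past 2-fold depends on the minimum of UMIs, since fewer or more genes are tested. With at least 200 UMIs, and with at least 1 UMI in each library, the counts were 140 and 2369 in non-naive CD8 (418 at 50 UMIs), 162 and 2681 in naive-like CD8 (469), 29 and 2291 in non-naive CD4 (211), 156 and 2871 in naive-like CD4 (647), 49 and 2211 in regulatory T (253), 126 and 2783 in gamma-delta T (511), and 85 and 2348 in NK cells (388). They were 135 and 2728 in C1q macrophages (418), 122 and 2680 in C1q-low cells (453), 130 and 2466 in mixed mature dendritic cells (480), 96 and 2504 in those low in Rhox5 (403), 198 and 2670 in mixed fibroblasts (567), 54 and 2551 in those low in Rhox5 (280), 73 and 2247 in tumour cells (281) and 149 and 2676 in those gated without Y (500).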
